A study of Mus musculus with 10 samples.

Results

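Endothelial cell genes were examined in RNA from purified cardiomyocytes (CMs), the contractile cells of the heart, of old and young mice. The old group comprised C57BL6J mice aged 20 months and the young group C57BL6J mice aged 3 months, with 5 libraries per age, and n counts libraries. All mice were inbred, no treatment or genotype is named, and the labels used here do not give the sex of the animal behind a library. The authors describe the hearts used to isolate CMs as mixed-sex. Hearts were digested by retrograde (Langendorff) perfusion, the CMs were left to sediment, and cells carrying CD31, CD45 or Sca-1 were then pulled out with antibodies and magnetic beads, in both ages alike. The genes are 32 that mark endothelial cells, chosen by name from a list. No cut on their values was used, but earlier results of these data were known. All 32 were found among the 37819 features of the table, each once, and 30 of them were among the 12340 features that reached a mean of 1 FPKM (fragments of a gene's transcript scaled by its length and by the mapped fragments of the library) and were tested.

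Endothelial cells line every blood vessel, and in the heart nearly every CM lies beside a capillary. The cells are held together by Cdh5 (VE-cadherin), Pecam1 (CD31), Esam and Cldn5. They sense their surroundings through receptors such as Tie1 and Eng, and they take their identity from ETS, SOX and GATA-partner transcription factors such as Erg, Sox17 and Tal1. CD31 is the product of Pecam1 and Sca-1 that of Ly6a, so these genes encode proteins that the beads were aimed at, and the others mark the cells that carry them. In bulk RNA, fewer cells of a type and less RNA per cell cannot be told apart.

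Promoters were at hand for 13 of the 32 genes in RefSeq's table for GRCm38.p6, a later build than the mm9 of the expression table, with 19 start windows between them. The genes without one were Pecam1, Cdh5, Esam, Vwf, Fabp4, Ecscr, Sox7, Sox17, Sox18, Nos3, Icam2, Ptprb, Mmrn2, Gpihbp1, Aplnr, Ly6a, Plvap, Ramp2 and S1pr1. The 250 bases before the start are shown for Tie1 and Robo4, which had the highest and the third highest correlation with Pecam1 of the genes with a window, and for Cldn5, which had the lowest. Capitals mark the ETS core AGGAAG or its reverse complement CTTCCT. The Tie1 window lies at chr4:118489850-118490099 (minus strand), the Robo4 window at chr9:37401722-37401971 (plus strand) and the Cldn5 window at chr16:18776597-18776846 (plus strand).
Tie1: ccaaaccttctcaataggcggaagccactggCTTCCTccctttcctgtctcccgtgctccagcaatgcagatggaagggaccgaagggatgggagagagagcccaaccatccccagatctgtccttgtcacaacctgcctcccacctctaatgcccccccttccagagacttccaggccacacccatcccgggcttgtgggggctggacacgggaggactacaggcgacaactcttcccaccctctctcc
Robo4: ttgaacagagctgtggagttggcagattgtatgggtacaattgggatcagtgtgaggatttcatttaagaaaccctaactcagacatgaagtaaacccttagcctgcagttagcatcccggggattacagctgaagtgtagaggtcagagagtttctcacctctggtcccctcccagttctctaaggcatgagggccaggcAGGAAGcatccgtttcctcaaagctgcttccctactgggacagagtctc
Cldn5: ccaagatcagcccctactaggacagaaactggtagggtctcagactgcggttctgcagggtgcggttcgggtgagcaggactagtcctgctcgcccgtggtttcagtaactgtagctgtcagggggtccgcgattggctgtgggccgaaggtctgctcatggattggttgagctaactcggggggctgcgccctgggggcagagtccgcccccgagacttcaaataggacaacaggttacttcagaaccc
Of the 13 genes, 10 held this core in at least 1 of their windows, among them Tie1 and Robo4 with 1 copy each, and Cldn5 held none. Ly6c1 held it only in a window whose start was not matched to an annotated transcript, and its matched window held none. The like share over all genes was not computed, and genes with more windows have more chances to hold the core. By window the core was in 11 of 19 (57.9%), against 29.5% of all 32851 promoters in the table. The GATA core GATAA or TTATC was in 3 of the 19 windows (15.8%), against 22.6% of all, and the SOX core ACAAT or ATTGT in 6 of the 19 (31.6%), against 27.7% of all. These are matches of letters and not measured binding sites.

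The libraries were alike in depth, at about 24500000 to 32400000 fragments, an approximate figure drawn from the spacing of low values because the depth is not stated. CM markers were by far the most abundant of the lists examined: 10 of them, among them Myh6 and Tnnt2, summed to between 45468 and 58297 FPKM in a library. The 32 endothelial genes summed to 1380, 733, 827, 726 and 882 FPKM in old libraries 1 to 5, against 764, 962, 768, 1511 and 689 FPKM in young libraries 1 to 5. Old library 1 and young library 4 stood above the other 8, which ranged from 689 to 962 FPKM.

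Every one of the 32 genes was detected in every library. Their means spanned from the lipid carrier Fabp4, the most abundant by far, down to the transcription factor Tal1 and the diaphragm protein Plvap, which stayed under 1 FPKM on average. The fewest fragments behind a value were about 24 for Plvap, 48 for Tal1 and 133 for Sox17, so their single values carry the widest counting error.

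Pecam1 (mm9 chr11:106515531-106611942, minus strand), the CD31 gene, stood at 41.3, 20.0, 25.5, 21.0 and 24.3 FPKM in old libraries 1 to 5, against 21.6, 29.5, 22.9, 39.9 and 19.3 FPKM in young libraries 1 to 5. Each age thus held a single library near 40 FPKM and 4 libraries between 19.3 and 29.5 FPKM, and the ages overlapped fully. The other bead target, Ly6a (mm9 chr15:74825308-74828064, minus strand), stood at 118, 58.2, 50.6, 42.1 and 54.7 FPKM in old libraries 1 to 5, against 54.0, 60.4, 45.5, 92.5 and 41.5 FPKM in young libraries 1 to 5. The same libraries were highest, here with old library 1 the higher. Ptprc, which encodes the third target CD45 of leukocytes, ranged from 0.254 to 0.575 FPKM in old libraries, against 0.189 to 0.472 FPKM in young libraries.

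Cdh5 (mm9 chr8:106625525-106668402, plus strand), the adherens junction cadherin of endothelium, stood at 53.7, 27.7, 33.2, 27.8 and 29.5 FPKM in old libraries 1 to 5, against 24, 39.4, 30.4, 46.8 and 22.6 FPKM in young libraries 1 to 5. It repeated the Pecam1 order almost library for library. Fabp4 (mm9 chr3:10204347-10208576, minus strand), a fatty acid carrier of capillary endothelium, was the most abundant of the set, at 537, 287, 343, 309 and 405 FPKM in old libraries 1 to 5, against 306, 389, 319, 668 and 304 FPKM in young libraries 1 to 5. Adipocytes also make Fabp4. Of 6 adipocyte markers, Adipoq and Lep were at 0 in all 10 libraries and the summed level of the 6 lay between 0 and 0.182 FPKM in old libraries and between 0 and 0.101 FPKM in young libraries.

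Gpihbp1, which carries lipoprotein lipase to the capillary lumen, stood at 63.6, 37.4, 38.8, 35.1 and 40.3 FPKM in old libraries 1 to 5, against 38.1, 44.4, 36.6, 79.0 and 35.1 FPKM in young libraries 1 to 5. Ly6c1, a surface protein of capillary endothelium and of some leukocytes, stood at 108, 61.5, 56.9, 48.7 and 65.7 FPKM in old libraries 1 to 5, against 58.8, 75.7, 50.5, 124 and 59.3 FPKM in young libraries 1 to 5. In both genes young library 4 exceeded old library 1. Ly6a and Ly6c1 have close relatives beside them, so reads that fit more than 1 of these genes were lost and their levels are uncertain. Egfl7, a secreted protein of vessel walls that is also the host gene of a microRNA, stood at 78.2, 41.4, 46.9, 41.1 and 40.6 FPKM in old libraries 1 to 5, against 39.4, 48.7, 44.0, 70.6 and 30.4 FPKM in young libraries 1 to 5.

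**Figure D1:**
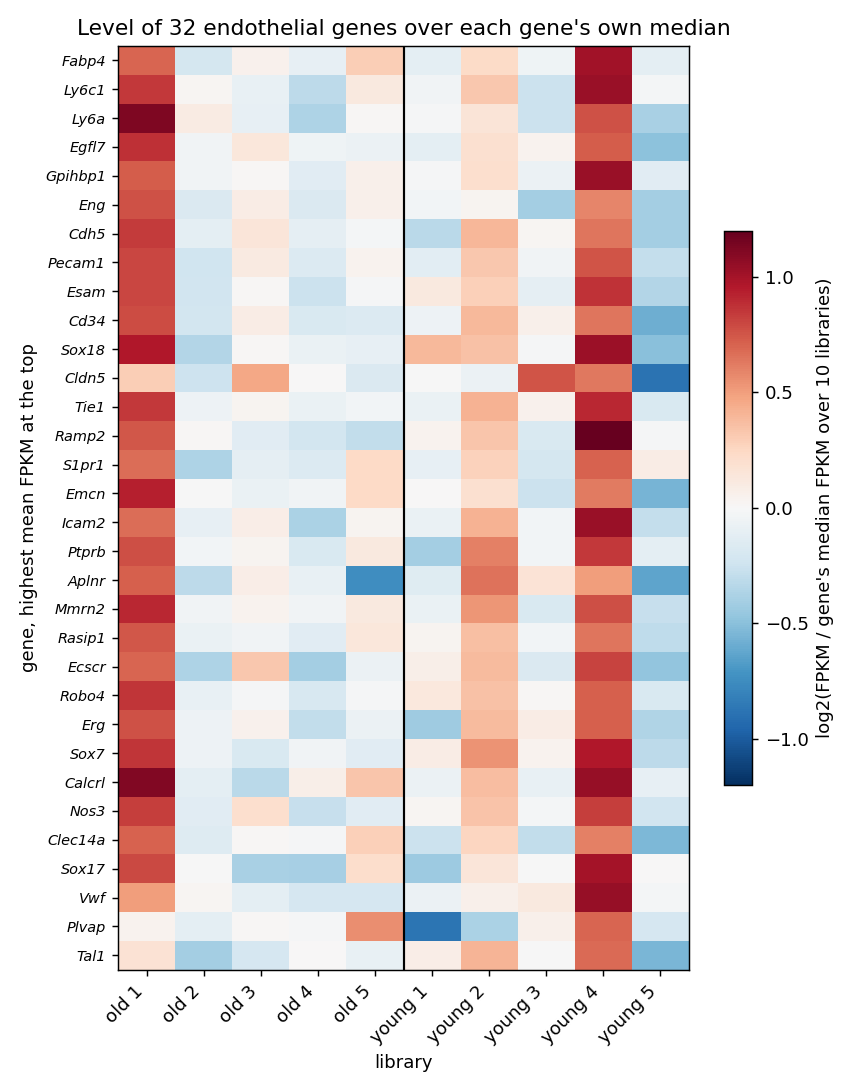
Colour shows log2 of a gene's FPKM over its own median across the 10 libraries, for 32 endothelial genes (rows, highest mean at the top) in the 5 old libraries (left of the line) and the 5 young libraries (right). Old library 1 and young library 4 are the red columns, with a median fold of 1.72 and 1.70, and young library 5 is the bluest, with a median fold of 0.813.

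The same pattern ran through the whole set. Old library 1 and young library 4 were above all 8 other libraries in 28 of the 32 genes, the exceptions being Cldn5, Tal1, Aplnr and Plvap. The highest value was in old library 1 for 14 genes, in young library 4 for 17 and in young library 3 for Cldn5. The lowest was in young library 5 for 18 genes. Taking each gene over its own median, the median fold was 1.72 in old library 1 and between 0.902 and 1.01 in the other old libraries, against 1.70 in young library 4, 1.26 in young library 2 and between 0.813 and 0.979 in the other young libraries.

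The 2 high libraries were not copies of each other. Old library 1 was higher than young library 4 in 14 genes and lower in 18. The ratio of old library 1 over young library 4 was 1.28 for Ly6a, 1.24 for the sialomucin Emcn and 1.15 for Cdh5, and it was 0.689 for Vwf, the clotting factor carrier stored in endothelial granules, and 0.667 for Ramp2, which with Calcrl forms the adrenomedullin receptor. For Pecam1 it was 1.03.

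Other cells of the heart's connective tissue were high in the same libraries. Mural markers, 12 genes of pericytes and smooth muscle, summed to 217 FPKM in old library 1 and 212 FPKM in young library 4, against 102 to 164 FPKM in the other 8. Fibroblast markers, 12 genes, summed to 270 FPKM in old library 1 and 304 FPKM in young library 4, against 102 to 170 FPKM in the other 8. Leukocyte markers, 15 genes of which 7 reached the filter, summed to 55.9 FPKM in old library 1 and 80.3 FPKM in young library 4, against 28.1 to 48.9 FPKM in the other 8. The sum of the CM markers ran the other way, at 45468 FPKM in old library 1 and 49016 FPKM in young library 4. It was 49728 to 58297 FPKM in the other 8. Single CM markers differed. Myh6 and Actc1 had their lowest values in young library 4, while Tnnt2 and Mb there lay within the range of the other 8. The part of these cells in the endothelial levels was not tested.

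**Figure D2:**
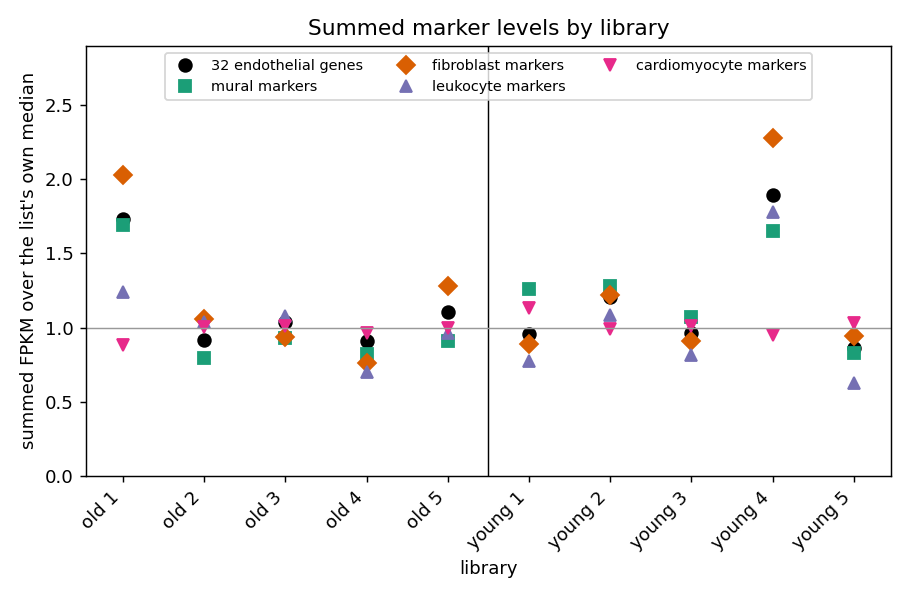
Summed FPKM of each marker list over the list's own median across the 10 libraries (vertical axis), for the 5 old libraries (left) and the 5 young libraries (right). The 32 endothelial genes, the mural, the fibroblast and the leukocyte markers are all highest in old library 1 and young library 4, where the CM markers have their lowest values.

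Co-variation was measured as Pearson r of log2(FPKM + 1) over the libraries. Over all 10 libraries, the 435 pairs of the 30 tested genes had a median r of 0.884, from 0.195 to 0.982, with 350 pairs at 0.8 or more and none below 0, and the first principal component held 85.1% of their variance. Without old library 1 and young library 4, the median r over the other 8 libraries was 0.601, from -0.478 to 0.951, with 81 pairs at 0.8 or more and 17 below 0, and the first component held 56.9%. Leaving out the libraries with the highest levels narrows the range, which by itself lowers r. The drop alone therefore does not show a weaker relation among the other 8. On values centred on the mean of each age the median r was 0.907.

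Set against Pecam1, 27 of the 29 other tested genes had an r of at least 0.8, where 7.80% of the 12339 other features did. In a two-sided permutation test with 100000 pairings and Benjamini-Hochberg adjustment over all features, 24 of the 29 had an adjusted p of at most 0.05, against 6.36% of all features. The median r was 0.930. Tie1, a tyrosine kinase receptor of vessels, was the closest (r = 0.976, permutation adjusted p = 0.0112, rho = 0.903, permutation adjusted p = 0.0622, n = 10), followed by Nos3, the endothelial nitric oxide synthase (0.972), Esam, a tight junction adhesion molecule (0.970), Rasip1, a regulator of vessel lumens (0.968), and Cdh5 (r = 0.966, permutation adjusted p = 0.00995, rho = 0.952, permutation adjusted p = 0.0384, n = 10). By rank 18 of the 29 had a rho of at least 0.8, where 4.44% of all features did, and 5 had an adjusted p of at most 0.05, against 0.729% of all features. Old library 1 and young library 4 were the libraries farthest from the median of Pecam1, and without them 13 of the 29 had an r of at least 0.8, where 2.37% of all features did. The median r was then 0.775, and neither these genes nor any other feature had an adjusted p of at most 0.05 by the exact permutation test, while 16 of the 29 and 678 of all 12339 features had an unadjusted p under 0.05.

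Over the 8 libraries left, where the range of levels is narrower, the genes differed more in their r with Pecam1. Cdh5 (0.907), Icam2, an adhesion molecule (0.902), Ecscr, a surface protein (0.892), Tie1 (0.889), Gpihbp1 (0.886) and Cd34, a sialomucin of vessels and progenitors (0.881), kept the highest r with Pecam1 over the 8 libraries. Vwf (r = 0.807 over 10 libraries and 0.0966 over 8), Sox17, a factor of arterial endothelium (0.845 and 0.256), and Ramp2 (0.850 and 0.349) had the lowest. Fabp4 had 0.946 over 10 libraries and 0.831 over 8, and Ly6a 0.909 and 0.538.

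Of the 29 tested genes set against Pecam1, Cldn5, a tight junction claudin, had the lowest r. It stood at 18.0, 12.3, 20.2, 14.6 and 13.0 FPKM in old libraries 1 to 5, against 14.6, 13.9, 24.7, 22.7 and 7.93 FPKM in young libraries 1 to 5. Its highest value was in young library 3, where the other 31 genes were not at their highest, and its r with Pecam1 was 0.542 over 10 libraries (permutation adjusted p = 0.499) and 0.420 over 8. Aplnr, the apelin receptor of capillary and venous cells, came next among the tested genes (r = 0.793, permutation adjusted p = 0.0780, n = 10). It was highest in old library 1 (12.2 FPKM) and then in young library 2 (11.6 FPKM), and lowest in old library 5 (4.41 FPKM). Of the genes under 1 FPKM on average, Plvap had an r of 0.457 and Tal1 an r of 0.780 with Pecam1 over 10 libraries.

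**Figure D3:**
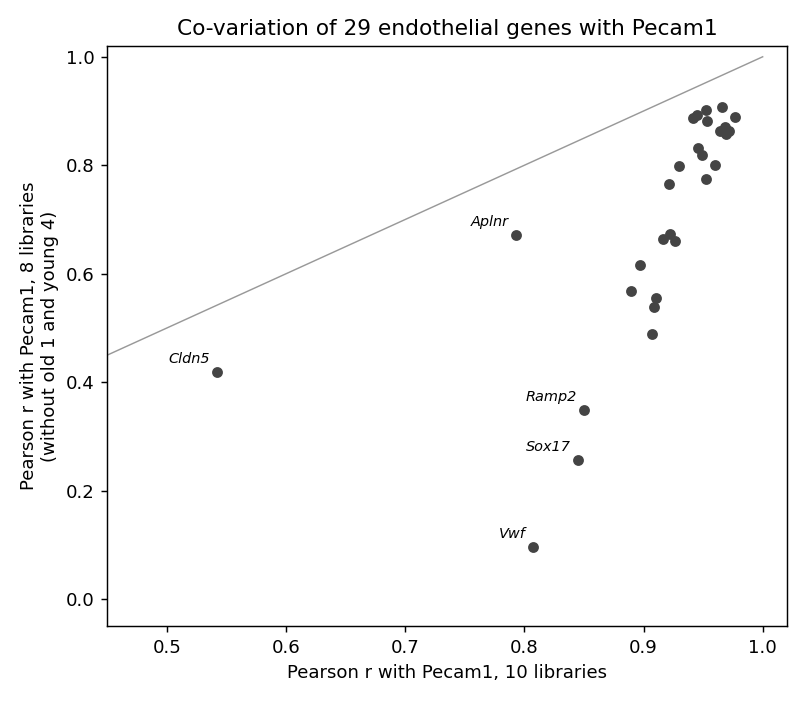
Pearson r with Pecam1 over 10 libraries (horizontal axis) and over the 8 without old library 1 and young library 4 (vertical axis), 1 point per gene for 29 endothelial genes, with the line of equal values. All but 2 points lie at 0.8 or more on the horizontal axis and 13 do on the vertical axis; Vwf, Sox17 and Ramp2 drop the most to low values.

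Features outside the set followed Pecam1 at least as closely. Among those with the highest r over 10 libraries were Sparcl1 (0.992), a secreted relative of the matrix protein SPARC, Arap3 (0.990), Gm5822 (0.988), Glt25d2 (0.988), Myo1d (0.987), Ddr2 (0.987), App (0.981), Ushbp1 (0.981) and Jag2 (0.980). Arap3 and Ushbp1 are in the list of other endothelial genes and Ddr2, a collagen receptor, in the fibroblast list. Jag2 is a Notch ligand.

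Among 24 further endothelial genes outside the set, 21 had an r of at least 0.8 with Pecam1, with a median of 0.915 over 10 libraries and 0.71 over 8. Tek, the angiopoietin receptor, reached 0.972 and Cav1, the caveola protein, 0.978, while Lmo2, a partner of Tal1, had 0.164. Of the subtype markers, 7 of 9 arterial, 5 of 8 capillary and 2 of 3 venous genes that reached the filter had an r of at least 0.8, and none of 3 endocardial genes did. Of the markers of other cells, 11 of 12 mural genes had an r of at least 0.8, with a median of 0.934 over 10 libraries and 0.799 over 8, and the pericyte gene Rgs5 reached 0.976 over 10. In fibroblast markers it was 11 of 12, with a median of 0.874 over 10 libraries and 0.489 over 8. In leukocyte markers it was 4 of 7, with a median of 0.816. None of 10 CM markers had an r of at least 0.8, and their median was -0.498 over 10 libraries and -0.00966 over 8. These values are descriptions over the same 10 libraries.

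Old and young CMs were then compared for each gene. None of the 30 tested endothelial genes was higher or lower at an adjusted p of at most 0.05 (limma on log2(FPKM + 1), two-sided, Benjamini-Hochberg over all features), where 0.689% of all features were higher in old CMs and 1.09% lower. These shares come from 85 higher and 135 lower features, which were 105 and 30 after median-ratio scaling and 135 and 29 after upper-quartile scaling. None had an unadjusted p under 0.05, which 20.9% of all features had, and none had old and young libraries that did not overlap, against 6.91% of all features. The difference was below 0 in 23 of the 30, and in 68.7% of all features, but in 15 of the 30 after median-ratio scaling, in 13 after upper-quartile scaling and in 4 without young library 4. The median difference, old minus young, was -0.057 on the log2 scale, against -0.058 over all features, and it was 0.005 after median-ratio scaling and 0.024 after upper-quartile scaling. The p-values measure the spread between libraries, since the labels do not say whether each came from a separate animal.

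The summed level of the 32 genes averaged 910 ± 271 FPKM in old CMs and 939 ± 336 FPKM in young CMs (SD, n = 5 each), a ratio of 0.969, and 0.995 without old library 1 and young library 4. Leaving out 1 library in turn gave ratios of 0.844 (without old library 1) to 1.14 (without young library 4). Over the 28 genes other than Fabp4, Cd34, Ly6a and Ly6c1, which other cells also make, the means were 381 ± 116 FPKM in old CMs and 389 ± 127 FPKM in young CMs (SD, n = 5 each). Whether other cells also make any of the 28 was not tested.

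**Figure D4:**
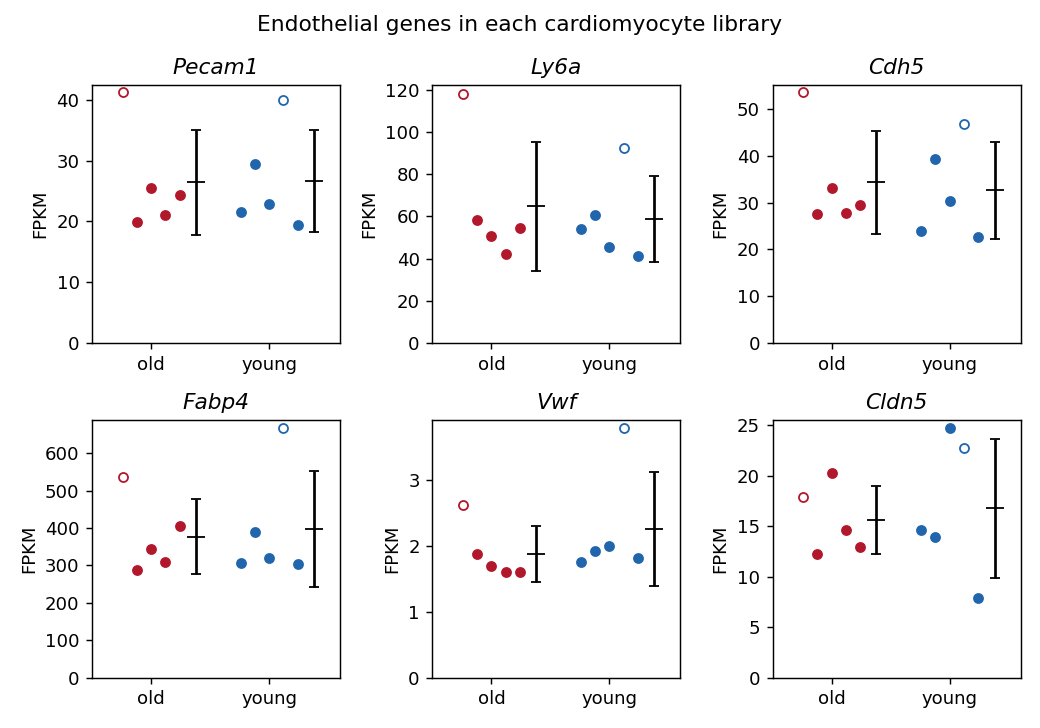
FPKM of 6 endothelial genes in each library (points), old on the left and young on the right of each panel, with the mean and SD (n = 5 each) beside the points. Open circles mark old library 1 and young library 4, the highest of their age in each gene except Cldn5, and the ages overlap in all 6.

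Among junction and adhesion genes, Pecam1 averaged 26.4 ± 8.61 FPKM in old CMs and 26.6 ± 8.34 FPKM in young CMs (SD, n = 5 each), with a log2 difference of -0.01 (95% interval -0.51 to 0.49, limma adjusted p = 0.983), the smallest of its group. Cdh5 averaged 34.4 ± 11 FPKM in old CMs and 32.7 ± 10.3 FPKM in young CMs (SD, n = 5 each), with a log2 difference of 0.08 (SE 0.23, limma adjusted p = 0.894). Icam2 had the largest difference of the group, -0.14 (SE 0.24, limma adjusted p = 0.80). The others, Esam, Cldn5, Rasip1 and the phosphatase Ptprb, lay between these.

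Among receptors and co-receptors, Ramp2 had the largest difference of all 30 genes. It stood at 21.6, 13.0, 11.7, 11 and 10.5 FPKM in old libraries 1 to 5, against 13.2, 16.2, 11.3, 32.4 and 12.7 FPKM in young libraries 1 to 5, a log2 difference of -0.26 (SE 0.28, limma adjusted p = 0.644). Young library 4 accounted for the highest value and the other libraries of the ages overlapped. Without young library 4 the difference was -0.01. Its receptor partner Calcrl had the smallest difference of the group, -0.01 (SE 0.24, limma adjusted p = 0.987). Eng, a co-receptor for TGF-beta ligands, stood at 60.7, 31.7, 38, 31.8 and 37.4 FPKM in old libraries 1 to 5, against 34.9, 36.7, 27.0, 53.7 and 27.0 FPKM in young libraries 1 to 5, a log2 difference of 0.15 (SE 0.22, limma adjusted p = 0.743), which was -0.0046 without old library 1. Tie1, Robo4, Aplnr and the sphingosine-1-phosphate receptor S1pr1 were between -0.15 and -0.08.

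Among surface and matrix proteins, Emcn stood at 20.4, 10.6, 10.1, 10.4 and 12.6 FPKM in old libraries 1 to 5, against 10.7, 12.2, 8.92, 16.4 and 7.26 FPKM in young libraries 1 to 5, with the largest positive difference of the set at 0.19 (SE 0.23, limma adjusted p = 0.691). Clec14a, a C-type lectin of endothelium, stood at 4.51, 2.48, 2.79, 2.74 and 3.36 FPKM in old libraries 1 to 5, against 2.32, 3.30, 2.25, 4.20 and 1.90 FPKM in young libraries 1 to 5, a log2 difference of 0.15 (SE 0.17, limma adjusted p = 0.676). In both genes the old libraries other than old library 1 lay within the range of the young ones. Without old library 1 the difference was 0.019 in Emcn and 0.048 in Clec14a.

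Vwf stood at 2.61, 1.87, 1.70, 1.6 and 1.6 FPKM in old libraries 1 to 5, against 1.75, 1.92, 1.99, 3.79 and 1.81 FPKM in young libraries 1 to 5. It had the smallest p of the 30 genes, with a log2 difference of -0.16 (SE 0.16, limma unadjusted p = 0.353, adjusted p = 0.632), and without young library 4 the difference was -0.01. Of the 2 bead targets, Ly6a differed by 0.10 (SE 0.28, limma adjusted p = 0.889). Cd34 had the smallest difference of this group, -0.02.

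Of the transcription factors, the 4 tested had differences between -0.15 for Sox18 (SE 0.28, limma adjusted p = 0.813) and -0.004 for Erg (SE 0.21, limma adjusted p = 0.994), with Sox7 and Sox17 between them. Erg was above 0 after either scaling. Tal1 averaged 0.532 ± 0.0788 FPKM in old CMs and 0.641 ± 0.197 FPKM in young CMs (SD, n = 5 each, two-sided exact permutation p = 0.302). Plvap averaged 0.939 ± 0.190 FPKM in old CMs and 0.839 ± 0.351 FPKM in young CMs (SD, n = 5 each, two-sided exact permutation p = 0.587). For these untested genes the smallest p that the design allows is 0.00794. The lipid and nitric oxide genes differed by -0.08 in Gpihbp1, -0.07 in Nos3 and -0.04 in Fabp4, with limma adjusted p-values of 0.893, 0.884 and 0.943.

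**Figure D5:**
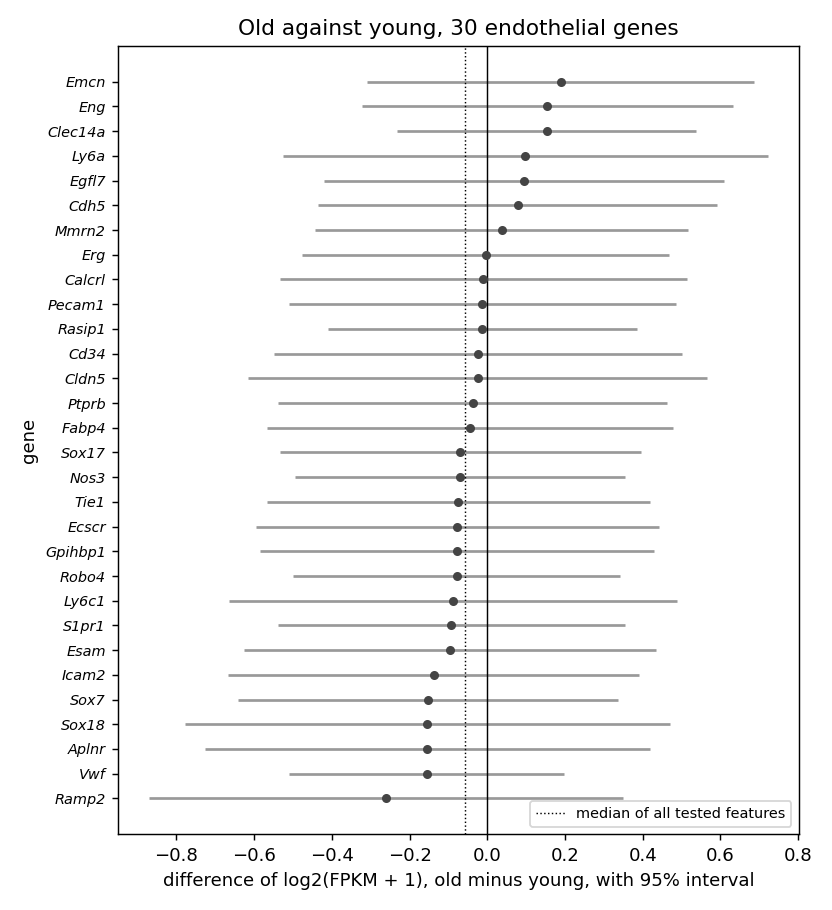
Difference of log2(FPKM + 1), old minus young, with its 95% interval (horizontal axis) for the 30 tested endothelial genes (rows, most positive at the top). All 30 intervals include 0, and the dotted line marks the median of all features, -0.058.

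Exons of 7 of the 32 genes overlap those of a neighbour in the mm9 annotation, namely Egfl7, Eng, Cd34, Ecscr, Nos3, Rasip1 and Ramp2. The longest overlap was 637 bases, between Ramp2 and Vps25 on the same strand. Reads in these stretches cannot be assigned to 1 gene with certainty, and the sources used here do not say whether the counting used strand.

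In the related lists, Npr3 was the single gene called among the cell type markers outside the set, and 1 of 3 endocardial genes tested. Over all features 0.689% were called higher in old CMs and 1.09% lower. Npr3, the natriuretic peptide clearance receptor and a marker of endocardium, stood at 2.97, 2.37, 2.71, 2.25 and 2.25 FPKM in old libraries 1 to 5, against 0.876, 0.991, 1.19, 1.59 and 0.864 FPKM in young libraries 1 to 5. All old libraries were above all young ones, and the log2 difference was 0.75 (SE 0.11, limma adjusted p = 0.0134). With same-numbered libraries as blocks the adjusted p was 0.113. Its r with Pecam1 was 0.291 over 10 libraries and 0.0195 over 8. Tmem100 and Cytl1, the other endocardial genes tested, had log2 differences of -0.36 (limma adjusted p = 0.0880) and -0.30 (limma adjusted p = 0.529).

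None of the 24 further endothelial genes was called, and none had an unadjusted p under 0.05 in limma. The smallest p-values belonged to Klf2, a factor induced by blood flow (log2 difference -0.36, limma adjusted p = 0.288), and the water channel Aqp1 (-0.51, limma adjusted p = 0.348), whose highest value, 159 FPKM, was in young library 4. None of 9 arterial, 8 capillary and 3 venous genes was called, with the smallest p in Cxcl12 (0.31, limma adjusted p = 0.501), Car4 (-0.36, limma adjusted p = 0.412) and Vcam1 (0.22, limma adjusted p = 0.519). Mural genes had a median difference of -0.11, with 11 of 12 below 0, but 0.056 with 4 of 12 below 0 without young library 4. Over all libraries 1 of them had an unadjusted p under 0.05, the contractile gene Acta2 (-0.75, limma adjusted p = 0.193). Fibroblast genes had a median of 0.10, with 2 of 12 below 0, but -0.086 with 10 of 12 below 0 without old library 1. Over all libraries the matrix gene Postn had the smallest p (0.57, limma adjusted p = 0.233).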

How the data were processed

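RNA of purified CMs was sequenced in 5 libraries of old and 5 of young mice. The authors mapped the read pairs on mm9 (TopHat2, Ensembl 67 junctions), discarded non-unique reads and determined FPKM per gene and library with Cufflinks; versions are not given in the sources used here. The deposited FPKM of 37819 features were used as given, after 1 stray header line was removed. The authors' own comparison was not used; it holds mean normalised counts, log2 fold changes, statistics and p-values, and 10 columns of per-sample values that match no label. FPKM are not counts, so no count model was fitted.

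The 12340 features that averaged 1 FPKM or more were tested with limma 3.58.1 in R 4.3.3 (trend, two-sided, threshold 0.05) on log2(FPKM + 1), which understates changes of low genes; the age was the only term. The test was checked on simulated data. Correlations and exact permutation tests used Python 3.11.15, numpy 2.4.6 and scipy 1.17.1, and plots matplotlib 3.10.9. Library totals of FPKM ranged from 1155614 in old library 3 to 3289461 in old library 1, with 1587304 in young library 4. Coordinates are from GENCODE M1. Rgcc, of the capillary list, was not found under that symbol.

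Values per library are given for called genes, Pecam1, Ly6a, Cdh5, the 5 most abundant genes and the 5 with the smallest p, and for Cldn5, added after its values were seen. Other genes are given by role group, with the largest and smallest difference of each; outside the set, the 10 features closest to Pecam1 and up to 2 genes with the smallest p per list are named, and others were named after their values were seen. Not every gene that this rule selects is reported here. The genes, lists and this rule were chosen with earlier results of these data known. Alternatives were a pseudocount of 0.1, no filter, a minimum of 5 FPKM, median-ratio and upper-quartile scaling, a replicate block, robust eBayes, array weights, Cdh5 in place of Pecam1, and leaving out libraries.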

Additional observations from a re-analysis of the deposited data

Results flagged for a closer look

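In groups of 5 libraries, 1 library stood apart from the other 4 in 25 of 64 groups examined (32 genes in each age) by Dixon's test at a critical value of 0.71, which chance exceeds in about 1 of 20 groups. The genes vary together, so these are not independent cases. Old library 1 was far above the other old libraries in 20 genes, with 41.3 FPKM of Pecam1, 53.7 of Cdh5, 24.6 of Tie1, 20.4 of Emcn, 78.2 of Egfl7, 33.7 of Esam, 60.7 of Eng, 2.61 of Vwf, 31.4 of Cd34 and 10.1 of Robo4. In the same library it was 8.06 FPKM of Sox7, 27.5 of Sox18, 8.60 of Erg, 12 of Ptprb, 12.1 of Mmrn2, 9.94 of Rasip1, 63.6 of Gpihbp1, 108 of Ly6c1, 118 of Ly6a and 21.6 of Ramp2. Young library 4 was far above the other young libraries in 4 genes, with 3.79 FPKM of Vwf, 668 of Fabp4, 79.0 of Gpihbp1 and 32.4 of Ramp2. Young library 2 lay between young library 4 and the rest in many genes. Old library 5 was far above the other old libraries in Plvap alone, at 1.27 FPKM.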

How the results depend on the processing

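None of the 30 endothelial genes was called (25 at the minimum of 5 FPKM) under any of the 20 alternatives (limma, adjusted p of at most 0.05), and the number with an unadjusted p under 0.05 was 0 in 19 of them and 3 with the mean of 24 further endothelial genes as a covariate, an alternative added after the data were seen, in which 24.3% of all features had one. The count of genes lower in old CMs was 23 as reported, 15 after median-ratio scaling, 13 after upper-quartile scaling and 15 with the covariate; it was 4 without young library 4, 28 without old library 1, 13 without old library 2 and 12 without old library 4. The median difference ranged from -0.20 to 0.11 with 1 library left out, and the ratio of the sums from 0.844 to 1.14. The number of genes with an r of at least 0.8 with Pecam1 was 13 of 29 without the farthest libraries, against 27, and between 24 and 28 with 1 library left out. With median-ratio scaling the median of all features was -0.00012 and 105 features were higher and 30 lower in old CMs, against 85 and 135 as deposited; with upper-quartile scaling 135 were higher and 29 lower, with the replicate block 19 and 7, and with 1 library left out 32 to 68 and 10 to 85. Differences that turned above 0 after median-ratio scaling were Pecam1 0.053, Cldn5 0.040, Fabp4 0.023, Cd34 0.041, Erg 0.053, Ptprb 0.022, Rasip1 0.046 and Calcrl 0.043. After upper-quartile scaling they were Pecam1 0.072, Tie1 0.0072, Cldn5 0.058, Fabp4 0.043, Cd34 0.060, Erg 0.069, Ptprb 0.040, Rasip1 0.064, Gpihbp1 0.0081 and Calcrl 0.058. With the covariate they were Pecam1 0.050, Cldn5 0.011, Fabp4 0.018, Cd34 0.039, Erg 0.053, Ptprb 0.022, Rasip1 0.036 and Calcrl 0.052. With array weights Cdh5 was -0.014 and Mmrn2 -0.022, and without both old library 1 and young library 4 Cldn5 was 0.051 and Fabp4 0.023. With 1 library left out, the differences that changed sign ranged from -0.18 to 0.14 for Pecam1, -0.091 to 0.22 for Cdh5, -0.24 to 0.087 for Tie1, -0.079 to 0.25 for Egfl7, -0.27 to 0.075 for Esam, -0.0046 to 0.31 for Eng, -0.25 to 0.13 for Cldn5, -0.18 to 0.16 for Fabp4 and -0.20 to 0.11 for Cd34. They ranged from -0.24 to 0.033 for Robo4, -0.22 to 0.074 for Ecscr, -0.21 to 0.091 for Sox17, -0.36 to 0.031 for Sox18, -0.15 to 0.13 for Erg, -0.22 to 0.059 for Nos3, -0.28 to 0.054 for Icam2, -0.18 to 0.11 for Ptprb and -0.12 to 0.17 for Mmrn2. They further ranged from -0.15 to 0.097 for Rasip1, -0.22 to 0.13 for Gpihbp1, -0.27 to 0.12 for Ly6c1, -0.14 to 0.27 for Ly6a, -0.19 to 0.16 for Calcrl and -0.24 to 0.038 for S1pr1. Those that kept their sign ranged from 0.019 to 0.33 for Emcn, 0.048 to 0.27 for Clec14a, -0.24 to -0.0074 for Vwf, -0.32 to -0.0032 for Sox7, -0.33 to -0.0095 for Aplnr and -0.43 to -0.015 for Ramp2. With 1 library left out, the lowest limma adjusted p among all 30 genes was 0.343, and the cause of the changes was not tested. Deviations of same-numbered libraries from the mean of their age had correlations of -0.022, 0.062, -0.083, -0.16 and 0.056 for numbers 1 to 5. For numbers 2 and 5 this was the highest with any young library. Whether the numbers mark a shared preparation was not tested. With the replicate block 0 endothelial genes were called, as without it, and Npr3 had a limma adjusted p of 0.113. The depth is approximate and limits Plvap, Tal1 and Sox17 the most.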

Other observations

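Holding the mean of the 24 further endothelial genes constant was an alternative added after the data were seen. It gave narrower errors in Emcn, Eng and Clec14a and in the passing marker genes named below. In Tmem100 it did not (SE 0.096 without it and 0.099 with it). Emcn differed by 0.25 (SE 0.082, limma adjusted p = 0.109), Eng by 0.21 (SE 0.071, limma adjusted p = 0.113) and Clec14a by 0.20 (SE 0.061, limma adjusted p = 0.0956), each higher in old CMs. Only these 3 of the 30 tested genes had an unadjusted p under 0.05 in this fit, against 24.3% of all features, and none passed the threshold. Of the 30, 15 had a difference below 0 in this fit. In the same fit 354 of all 12340 features passed it (137 higher and 217 lower in old CMs), against 220 without the covariate, and several marker genes outside the set were among them. Cxcl12, a chemokine listed with arterial endothelium, differed by 0.37 (SE 0.061, limma adjusted p = 0.0193). Cd300lg, a capillary surface protein, differed by 0.34 (SE 0.065, limma adjusted p = 0.0303), and Cyyr1 by 0.24 (SE 0.053, limma adjusted p = 0.0490). Npr3 differed by 0.77 (SE 0.075, limma adjusted p = 0.00141), and Postn by 0.63 (SE 0.13, limma adjusted p = 0.0413). Tnni3, a CM troponin, was lower in old CMs by -0.24 (SE 0.047, limma adjusted p = 0.0366). Other endothelial genes with an unadjusted p under 0.05 were lower in old CMs without passing: Klf2 (-0.32), Car4 (-0.30), Aqp1 (-0.44) and Tspan7 (-0.11). Their limma adjusted p-values were 0.0825, 0.0912, 0.131 and 0.177. Kdr, Vcam1, Btnl9 and Fli1 were likewise higher without passing. Cyyr1, Klf2, Aqp1, Tspan7, Kdr and Fli1 are themselves among the 24 genes of the covariate. None of these genes but Npr3 was called without the covariate, and whether the differences belong to endothelial cells was not tested.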
